A study of Rattus norvegicus with 8 samples.

Results

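The genes of respiratory complex III, complex IV and ATP synthase, with cytochrome c and the factors that assemble or regulate them, were followed in cultured rat oligodendrocyte precursor cells. Members were all rows of the deposited expression table whose symbol begins with Uqcr, Cox4 to Cox8, Cox10 to Cox19 or Atp5, or is Cyc1, Cycs, Higd1a, Higd2a, Surf1, Sco1, Sco2 or Atpif1. The rule took 58 of 32662 rows and 57 symbols, because Uqcrb stood on 2 rows, of which the one with the higher mean was used. Surf1 and Sco2 were not analysed here. The members comprised 9 nuclear subunits of complex III, cytochrome c, 17 subunits of complex IV, 9 complex IV assembly factors, 3 HIG1 domain and supercomplex factors, 14 ATP synthase subunits, its inhibitor Atpif1, Atp5s and Atp5sl, and 1 pseudogene.

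RNA had been sequenced from primary cells of Sprague Dawley rats in 2 groups of 4 samples. The OGD group was deprived of both oxygen and glucose for 6 h (oxygen glucose deprivation, a culture model of ischaemia), and the Control group is labelled only as control. Both groups came from the cerebral cortex of pups aged 1 to 2 days. The cells were grown in mixed glial culture with 20% serum, collected as the cells that did not adhere, and kept for 4 to 5 days in medium with 2 mM glutamine, 1% antibiotic, 2% B27 and the growth factors FGF and PDGF (10 ng/ml of each). The labels do not say that the 4 samples of a group came from different cultures. The p-values therefore rest on a spread between samples that may be no more than technical.

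The respiratory chain moves electrons from nutrients to oxygen across the inner mitochondrial membrane. Complex III passes them from ubiquinol to the small soluble carrier cytochrome c, and complex IV passes them from cytochrome c to oxygen. Both pump protons, and ATP synthase lets the protons flow back through a rotating ring of subunit c to drive the making of ATP. A few core subunits are encoded in the mitochondrial genome, and all members described here are nuclear genes. Cells starved of oxygen are known to change some complex IV parts: in mammalian cells the isoform Cox4i2 can be induced in place of Cox4i1, and HIGD1A is a known target of the hypoxia-inducible factors.

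Of the 57 members, 48 passed the filter of at least 1 FPKM in at least 4 samples. FPKM is fragments per kilobase of gene and scaled to the fragments of the library, so that levels of different genes can be set side by side per length. Each of the 48 had at least 1 FPKM in all 8 samples, and the lowest value was 2.83 FPKM. Their Control means spanned 3.68 FPKM (Cox18) to 475 FPKM (Atp5g2). The 9 members below the filter were mostly isoforms of other tissues: Cox7a1, Cox7b2, Cox8b, Cox8c and the pseudogene Cox6c-ps1 were listed at 0 in every sample, and Cox4i2, Cox6a2, Atp5f1 and Atp5s had low values given further on.

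After OGD most transcripts of the 3 complexes did not pass the test for a change, and a small set did. By limma on log2(FPKM + 1), with adjustment over all 11149 tested genes, 12 of the 48 members that could be tested were called lower, 4 were called higher and 32 missed an adjusted p of 0.05. The 16 called members compare with a share of 49.5% called among all tested genes. The share of members that fell, 25%, was close to the share of all tested genes that fell, 26.8%, and the share that rose, 8.33%, was below that of all tested genes, 22.7%. The median log2 change of the members was -0.12, beside -0.04 for all tested genes. Their median absolute log2 change was 0.16, beside 0.28 for all tested genes. The 12 that fell were Uqcr11, Uqcrq, Cycs, Cox5a, Cox10, Cox16, Cox19, Atp5d, Atp5g1, Atp5g3, Atp5j and Atp5o, and the 4 that rose were Cox11, Cox18, Sco1 and Higd1a.

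Among the 33 tested subunits of the 3 complexes, limma called 8 lower (24.2%, beside 26.8% of all tested genes). It called 0 higher (beside 22.7% of all tested genes), with 0 higher at an unadjusted p of 0.05 too. Cox7c was called higher without OGD replicate 3, and Cox4i1 and Cox7c with quantile normalization. The 4 genes that rose were assembly or accessory factors of complex IV. All 4 OGD samples lay below all 4 Control samples for 11 of the 48 members, beside 24.1% of all tested genes, and above them for 3 members, beside 20.7% of all tested genes (44.7% in either direction).

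**Figure D1:**
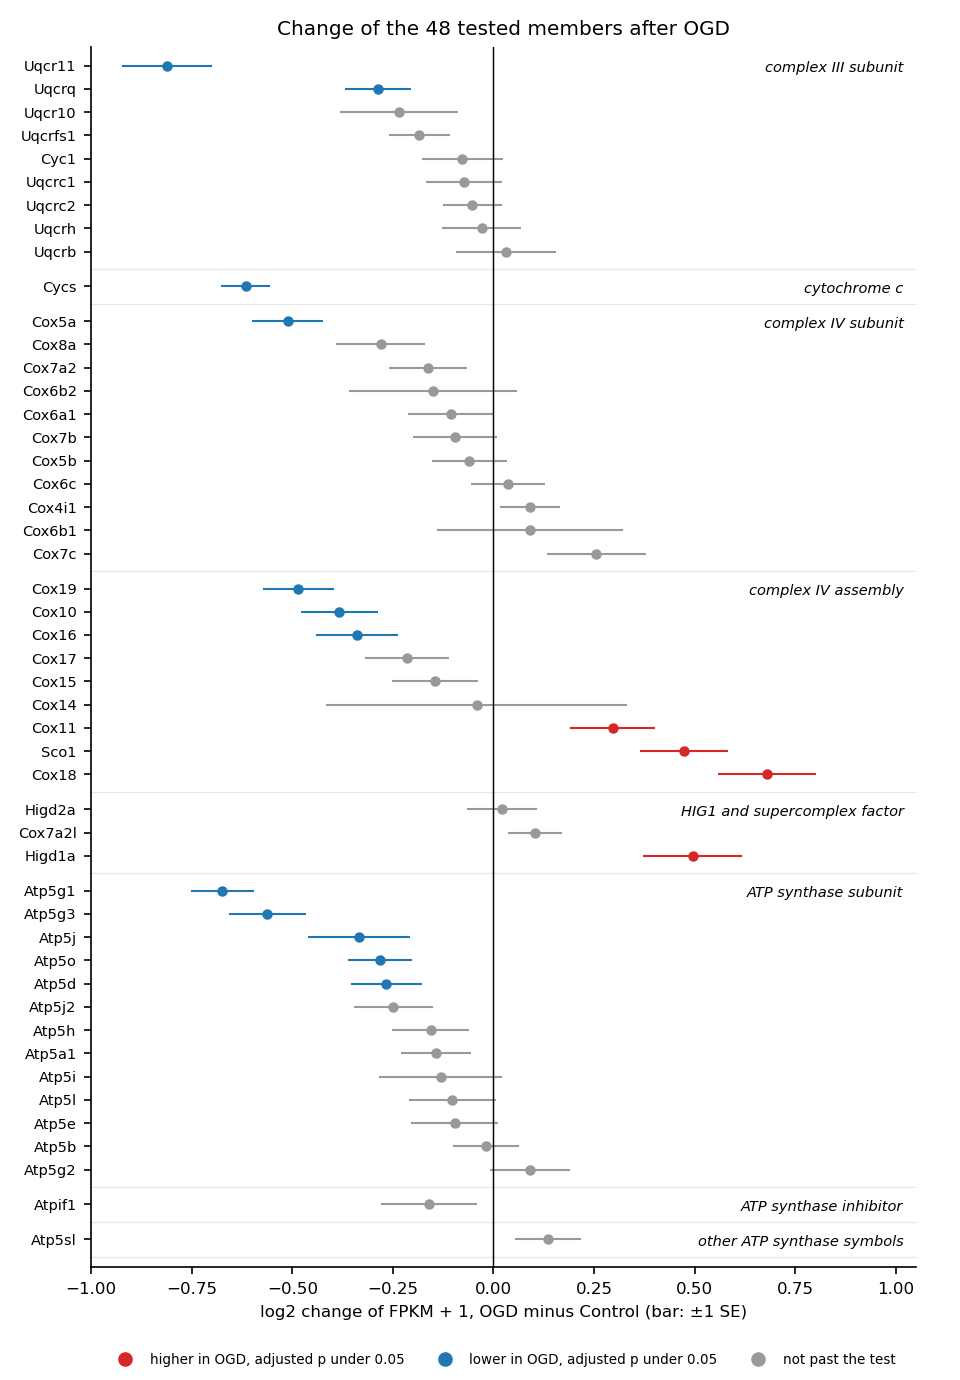
Log2 change of FPKM + 1, OGD minus Control, for each of the 48 tested members (horizontal axis; points are limma estimates, bars ±1 SE), grouped by complex. Blue points are the 12 members that fell and red points the 4 that rose, and the largest changes are those of Uqcr11 (-0.81) and Cox18 (0.68).

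The libraries differed among themselves in these genes. Control replicate 1 held the highest Control value for 43 of the 48 members, and OGD replicate 4 the highest OGD value for 31 of them. The median member stood 0.18 above the Control mean on the log2 scale in Control replicate 1, and -0.13, -0.05 and 0.01 from it in Control replicates 2, 3 and 4. In OGD replicates 1 to 4 it stood at -0.18, -0.18, -0.16 and 0.01. The 66 ribosomal protein genes showed the same high value in Control replicate 1 (0.19) and their highest OGD value in OGD replicate 4 (0.33), while the median of all tested genes was within 0.04 of the Control mean in all 8 libraries. Without Control replicate 1, 10 members fell and 4 rose, and the median log2 change of the members was -0.04. In that fit 2777 of all 10990 tested genes fell and 2343 rose. What set these libraries apart was not tested.

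**Figure D2:**
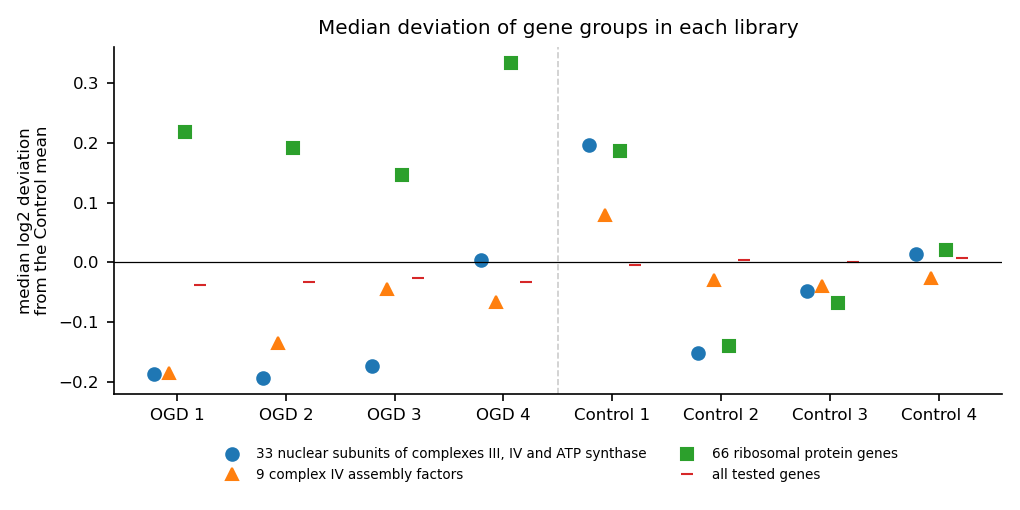
Median log2 deviation from the mean of the 4 Control libraries (vertical axis) in each library for the 33 nuclear subunits, the 9 complex IV assembly factors, 66 ribosomal protein genes and all 11149 tested genes. The subunits stand high in Control replicate 1 (0.20) and low in OGD replicates 1 to 3 (-0.17 to -0.19), with OGD replicate 4 at 0.00.

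The culture was checked against marker genes. Counts of called markers stand beside 26.8% lower and 22.7% higher among all tested genes. Markers of the precursor lineage were present at a summed 1654 to 1847 FPKM in OGD and 2580 to 2696 FPKM in Control libraries, and 6 of the 9 tested ones fell, 3 not passing. Markers of microglia summed to 64.9 to 119 FPKM in OGD and 200.6 to 329 FPKM in Control libraries, with 10 of 11 falling. Of 5 tested astrocyte markers 2 fell, and of 9 tested neuronal markers 2 rose and 3 fell. No marker of pericytes and vessels reached the filter, and Rgs5, Higd1b and Cldn5 were listed at 0 in all samples. In such cultures fewer cells of a type and less RNA per cell cannot be told apart, and the part of microglial RNA in the values below was not tested.

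In complex III, the 9 tested subunits had a median log2 change of -0.08, with 2 lower, 0 higher (0 at an unadjusted p of 0.05) and 7 not past the test by limma. The share lower was 22.2%, beside 26.8% of all tested genes. Single libraries moved these values: without OGD replicate 4 the median was -0.18 and 4 were lower, and without OGD replicates 1 or 2, left out in turn, it was -0.05 and -0.04. Without Control replicate 2 the median was -0.13 and 3 were lower. With all libraries, the lower ones were both small peripheral subunits, while Uqcr10 and Uqcrb, also small subunits, did not pass the test. Uqcr11 (ENSRNOG00000016952), the smallest subunit of the complex, had 55.0, 61.9, 60.1 and 67.4 FPKM in OGD samples 1 to 4, against 133.7, 93.8, 94.9 and 113 FPKM in Control samples 1 to 4. Every OGD sample lay below every Control sample, and Control replicate 1 was the highest. Its mean fell to 61.1 ± 5.12 FPKM in OGD, against 109 ± 18.8 FPKM in Control (SD, n = 4 each), a difference of -0.81 ± 0.11 on the log2 scale (SE, limma adjusted p = 0.000182), the largest fall among the members. Uqcrq (ENSRNOG00000048174), also known as the ubiquinone-binding protein QP-C, had 35.8, 42.1, 38.7 and 40.8 FPKM in OGD samples, against 55.9, 46.1, 45.3 and 46.0 FPKM in Control samples. The groups again did not overlap, by a margin smaller than the gap between Control replicate 1 and the other Control samples. The log2 change of Uqcrq was -0.29 ± 0.08 (SE, limma adjusted p = 0.0140).

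The catalytic and core subunits of complex III did not pass the test. Cyc1, the cytochrome c1 that hands electrons to cytochrome c, had 48.9, 47.6, 49.3 and 64.1 FPKM in OGD and 61.8, 49.9, 53.3 and 55.6 FPKM in Control samples. OGD replicate 4 was above all Control samples and the other OGD samples were below them. The log2 change of Cyc1 was -0.08 ± 0.10 (SE, limma adjusted p = 0.553). Uqcrfs1, the Rieske iron-sulphur protein, changed by -0.18 (limma adjusted p = 0.0658), and fell without OGD replicate 4. The core proteins Uqcrc1 and Uqcrc2 were at -0.07 and -0.05, the hinge protein Uqcrh at -0.03 and Uqcr10 at -0.24. Uqcrb was at 0.03 on the row used, and its other row ranged over 35.5 to 43.3 FPKM in OGD and 36.3 to 44.5 FPKM in Control samples. The summed level of the 9 genes per length was 601, 603, 627 and 705 FPKM in OGD samples and 815, 629, 711 and 739 FPKM in Control samples.

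Cytochrome c itself was lower after OGD, with little spread. Cycs (ENSRNOG00000010452), the carrier between complexes III and IV, which also triggers caspases when released from mitochondria, had 28.7, 29.1, 30.2 and 29.4 FPKM in OGD samples, against 48.8, 46.4, 43.5 and 43.5 FPKM in Control samples. The OGD samples lay within 1.51 FPKM of each other and well below all Control samples. The mean fell to 29.4 ± 0.642 FPKM in OGD, against 45.6 ± 2.58 FPKM in Control (SD, n = 4 each), a difference of -0.62 ± 0.06 on the log2 scale (SE, limma adjusted p = 2.18e-05), the smallest adjusted p of any member. Cycs has 7 pseudogene entries in the RefSeq gene table of GRCr8, so that reads of copies may enter its value. Hccs, the enzyme that attaches haem to cytochrome c, had 7.56 ± 1.06 FPKM in OGD and 9.56 ± 1.38 FPKM in Control (SD, n = 4 each; limma adjusted p = 0.0566).

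In complex IV, 1 of 11 tested subunits fell by limma (9.09%, beside 26.8% of all tested genes). The number that rose was 0 (0 at an unadjusted p of 0.05), 10 did not pass, and the median log2 change was -0.10. That median changed sign without Control replicate 1 (0.02) and with quantile normalization (0.06), and was -0.17 without Control replicate 2 and -0.03 without OGD replicate 1. Without OGD replicate 4, 2 subunits fell. Cox5a (ENSRNOG00000018816), a matrix-side subunit that binds a thyroid hormone metabolite, had 62.5, 56.2, 59.9 and 67.7 FPKM in OGD samples, against 103, 80.9, 80.7 and 89.1 FPKM in Control samples. No OGD sample reached the lowest Control sample. Its log2 change was -0.51 ± 0.09 (SE, limma adjusted p = 0.000805). Cox8a, another small subunit, was at -0.28 (limma adjusted p = 0.0550) and was called lower in 4 of 18 alternatives. Cox5b, Cox6a1, Cox6c, Cox7a2 and Cox7b were between -0.16 and 0.04. Cox7c was the highest, at 0.26 (limma adjusted p = 0.109), with 204, 197, 145 and 196 FPKM in OGD and 176, 127, 156 and 162 FPKM in Control samples. OGD replicate 3 stood below the other OGD samples, and without it Cox7c rose (limma adjusted p = 0.0148).

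Several tissue isoforms of complex IV were listed at or near 0 beside high values of their ubiquitous partners. A 0 in this table can be a failed estimate, since Chchd2, a gene of general use, was listed at 0 in all 8 samples and Atp5f1 in all Control samples, so these 0s are not read as a lack of transcript. Cox4i1 had 303, 266, 287 and 313 FPKM in OGD and 302, 264, 261 and 269.6 FPKM in Control samples, a difference of 0.09 ± 0.07 on the log2 scale (SE, limma adjusted p = 0.330). Cox4i2, the form inducible by low oxygen in other mammalian cells, was listed at 0, 0.393, 0.421 and 0.136 FPKM in OGD and at 0.160, 0, 0.289 and 0.150 FPKM in Control samples. Both groups thus held samples listed at 0 and samples under 0.5 FPKM, and Cox4i2 was listed far below Cox4i1 in all 8 libraries. Without a filter its log2 change was 0.10 (limma adjusted p = 0.599). In mouse brain Cox4i2 is known mainly from pericytes. Here 11 pericyte and vessel markers summed to 0.941 to 1.25 FPKM in OGD and 1.18 to 1.76 FPKM in Control libraries. Of these, 3 were listed at 0 in all samples, which can be failed estimates too. Whether cell make-up bears on the Cox4i2 values was not tested. Cox6a2, the muscle form, was listed at 0 in 6 samples and at 0.398 and 0.388 FPKM in OGD replicates 3 and 4, while Cox6a1 had 313, 329, 321 and 393 FPKM in OGD and 428.5, 308, 359 and 369 FPKM in Control samples. Cox7a1 and Cox8b, the muscle forms, were listed at 0 throughout. The general partner Cox7a2 had 118, 117, 96.1 and 121 FPKM in OGD and 143.5, 109.9, 123 and 131 FPKM in Control samples, and Cox8a had 174, 189.8, 220.3 and 239.9 FPKM in OGD and 293, 229, 232 and 246 FPKM in Control samples. The samples of all 3 general forms overlapped between the groups.

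Cox6b1 and Cox6b2 formed the exception. Cox6b2, known as the testis form, had 11.4, 15.8, 16.97 and 20.5 FPKM in OGD and 25.8, 13.3, 14.1 and 20.3 FPKM in Control samples. Cox6b1, the general form, had 8.79, 8.28, 11.9 and 12.9 FPKM in OGD and 8.08, 6.48, 9.68 and 16.4 FPKM in Control samples. Cox6b1 thus stood far below the other general subunits, and the samples of both genes overlapped between groups. The log2 ratio of Cox6b2 to Cox6b1 was 0.58 ± 0.22 in OGD and 0.82 ± 0.56 in Control (SD, n = 4 each), and the two-sided exact permutation test gave p = 0.514. Cox6b1 has 1 pseudogene entry in the RefSeq table, and whether reads were shared with it was not tested. The low level of Cox6b1 may be a failed estimate, as for Atp5f1. Cox6b2 is therefore not read as the more abundant isoform.

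Of 9 assembly factors of complex IV, 3 fell, 3 rose and 3 did not pass the test. Each of these called shares, 33.3%, lay near that of all tested genes, 26.8% lower and 22.7% higher, and 2 rather than 3 rose in the 8 alternatives in which Cox11 lost its call. The median log2 change of the 9 was -0.15, or -0.22 without Control replicate 3 and -0.10 without Control replicate 4, and their median absolute change 0.34, beside 0.28 for all tested genes. These were low genes, with Control means of 3.68 to 38.7 FPKM. Cox18 (ENSRNOG00000003052), which inserts part of the mitochondrially encoded subunit 2 into the membrane, had 6.96, 6.57, 5.55 and 6.73 FPKM in OGD, against 3.90, 2.83, 3.51 and 4.46 FPKM in Control samples. Every OGD sample was above every Control sample. The mean rose to 6.45 ± 0.623 FPKM in OGD, against 3.68 ± 0.686 FPKM in Control (SD, n = 4 each), a difference of 0.68 ± 0.12 on the log2 scale (SE, limma adjusted p = 0.000990). Sco1 (ENSRNOG00000028699), a copper chaperone of subunit 2, had 11.0, 10.7, 10.8 and 15.0 FPKM in OGD, against 9.01, 7.93, 7.84 and 7.99 FPKM in Control samples. OGD replicate 4 was far above the others, and the remaining OGD samples were still above all Control samples. The log2 change of Sco1 was 0.47 ± 0.11 (SE, limma adjusted p = 0.00438), and the gene rose in each of 18 alternatives, at 0.37 to 0.52. Cox11, which delivers copper to subunit 1, had 7.53, 6.28, 6.78 and 7.32 FPKM in OGD, against 6.27, 5.70, 5.60 and 4.49 FPKM in Control samples. The groups were separated by a small gap only. Its log2 change was 0.30 ± 0.11 (SE, limma adjusted p = 0.0369), and the call was lost in 8 of 18 alternatives, 6 of them the removal of 1 library (Control replicates 2, 3 or 4, or OGD replicates 1, 3 or 4; adjusted p up to 0.107 over all alternatives).

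The assembly factors that fell take part in copper delivery, haem A synthesis and the maturation of subunit 2. Cox19 (ENSRNOG00000050052), another factor of copper delivery, had 7.21, 7.57, 7.89 and 8.04 FPKM in OGD, against 12.8, 9.95, 11.4 and 10.6 FPKM in Control samples. Cox10 (ENSRNOG00000024972), the first enzyme of haem A synthesis, had 4.94, 5.95, 6.14 and 6.45 FPKM in OGD, against 8.39, 8.07, 8.13 and 7.19 FPKM in Control samples. For both genes the groups were fully separated. Their log2 changes were -0.49 ± 0.09 and -0.38 ± 0.10 (SE, limma adjusted p = 0.00109 and 0.00683). Cox16, which takes part in maturing subunit 2, had 14.7, 15.3, 10.9 and 12.0042 FPKM in OGD, against 17.4, 16.8, 16.1 and 17.2 FPKM in Control samples, a difference of -0.34 ± 0.10 on the log2 scale (SE, limma adjusted p = 0.0172). Its call was lost when Control replicate 1 and OGD replicate 4 were left out together (adjusted p = 0.0707). Cox15, the second enzyme of haem A synthesis, was at -0.15, and Cox17, the copper chaperone upstream of Sco1 and Cox11, at -0.21, neither past the test. Cox14 varied most, over 14.5 to 55.7 FPKM in OGD and 17.9 to 47.7 FPKM in Control samples.

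Of the 3 factors tied to complex IV stability and supercomplexes, 1 rose, beside 22.7% of all tested genes. Higd1a (ENSRNOG00000019428), the HIG1 domain protein named for its induction by low oxygen, had 33.2, 40.1, 32.2 and 27.0021 FPKM in OGD, against 28.3, 21.0, 21.6 and 21.7 FPKM in Control samples. OGD replicate 4 lay below Control replicate 1, so the groups overlapped by this 1 sample on each side. The mean rose to 33.1 ± 5.40 FPKM in OGD, against 23.2 ± 3.45 FPKM in Control (SD, n = 4 each), a difference of 0.50 ± 0.12 on the log2 scale (SE, limma adjusted p = 0.00675), and the gene rose in each of 18 alternatives, at 0.40 to 0.68. Higd2a, its relative with a role in complex IV assembly, had 55.1, 53.9, 53.2 and 60.8 FPKM in OGD and 63.2, 47.4, 54.3 and 55.7 FPKM in Control samples. These ranges lay within one another, and the log2 change was 0.02 ± 0.09 (SE, limma adjusted p = 0.860). Cox7a2l, which joins complexes III and IV into supercomplexes, was at 0.10 (limma adjusted p = 0.219).

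**Figure D3:**
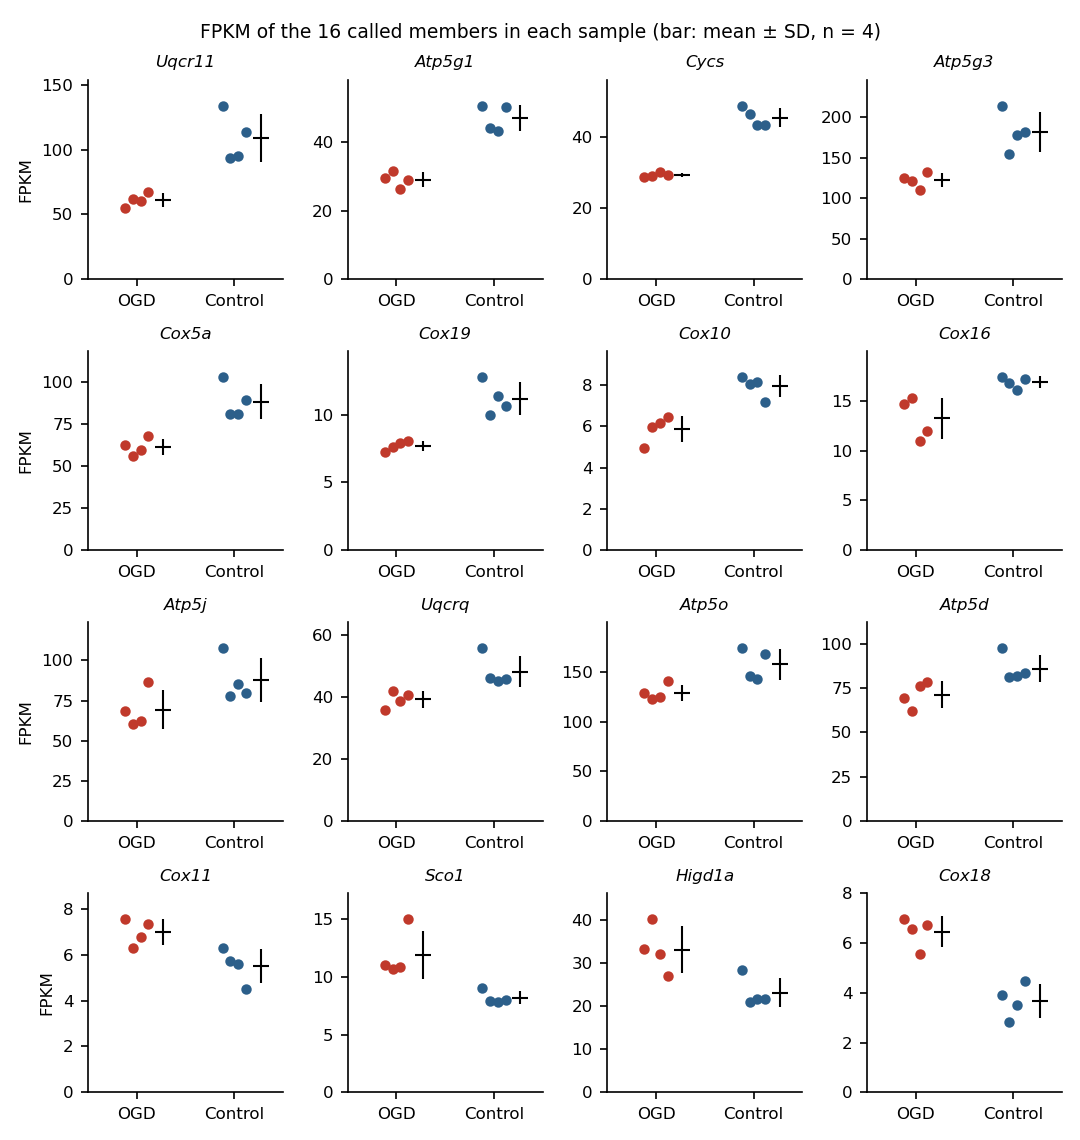
FPKM in each sample (vertical axes start at 0) of the 12 members that fell and the 4 that rose, in order of log2 change; red points are OGD samples, blue points Control samples, and the bars give the mean ± SD (n = 4). The groups are separate in all panels except Atp5j and Higd1a, and Control replicate 1, the leftmost blue point, is the highest Control sample in most.

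In ATP synthase, 5 of 13 tested subunits fell (38.5%, beside 26.8% of all tested genes), 0 rose (0 at an unadjusted p of 0.05) and 8 did not pass by limma, with a median log2 change of -0.16. Only 3 fell with quantile normalization and on leaving out Control replicate 1, OGD replicate 1 or OGD replicate 2, and the median was -0.24 without Control replicate 2. The catalytic head with its central stalk held 1 of the 5. Atp5b, the beta subunit that carries the catalytic sites, had 429, 407, 470.2 and 493.6 FPKM in OGD and 503, 433, 437 and 448 FPKM in Control samples, and Atp5a1, the alpha subunit, had 291, 269, 313 and 359 FPKM in OGD and 359, 332, 329.6 and 332 FPKM in Control samples. The OGD samples of Atp5b spread across and below the Control range. For Atp5a1, OGD replicates 1 to 3 lay below all Control samples, and OGD replicate 4 stood just above all of them. The log2 changes of Atp5b and Atp5a1 were -0.02 ± 0.08 and -0.14 ± 0.09 (SE, limma adjusted p = 0.874 and 0.198). Atp5a1 fell without OGD replicate 4. Atp5d, the delta subunit of the central stalk, had 69.1, 61.8, 76.0 and 78.3 FPKM in OGD, against 97.4, 81.4, 81.5 and 83.2 FPKM in Control samples. OGD replicates 3 and 4 came close to the lower Control samples without reaching them. Atp5d fell by 0.27 on the log2 scale (limma adjusted p = 0.0272), a call that was lost with quantile normalization and on leaving out any of OGD replicates 1 and 2 or Control replicate 1 (adjusted p up to 0.0968). Atp5e, the epsilon subunit, was at -0.10 and did not pass.

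In the outer stalk, Atp5o (OSCP, which ties the stalk to the head) had 128, 123, 125 and 141 FPKM in OGD, against 174, 146, 143 and 168 FPKM in Control samples. The groups were close but separate. Its log2 change was -0.28 ± 0.08 (SE, limma adjusted p = 0.0128). Atp5j (coupling factor 6) had 68.3, 60.6, 62.1 and 86.5 FPKM in OGD, against 107.5, 78.1, 85.1 and 79.4 FPKM in Control samples. OGD replicate 4 lay within the Control range. Its change of -0.33 passed narrowly (limma adjusted p = 0.0472), and this call was lost in 9 of 18 alternatives, among them each removal of 1 library except Control replicate 2 and OGD replicate 4. Atp5h, stalk subunit d, did not pass (-0.16), nor did the membrane subunits Atp5i (-0.13), Atp5j2 (-0.25) and Atp5l (-0.10). Atp5j2 missed narrowly (limma adjusted p = 0.0545) and was called lower in 4 of 18 alternatives. Atp5f1, the symbol of stalk subunit b, was listed at 0 in all Control samples and at 0.148, 0.168, 0.120 and 0 FPKM in OGD samples. Every ATP synthase contains this subunit, and a value of 0 here can be a failed estimate, so no change is read from this row.

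Of the 3 genes of subunit c, 2 fell (beside 26.8% of all tested genes) and 1 did not pass the test. In mammals Atp5g1, Atp5g2 and Atp5g3 encode the same mature ring protein behind different import sequences. Atp5g1 (ENSRNOG00000007235) had 29.6, 31.5, 26.3 and 28.9 FPKM in OGD, against 50.6, 44.0, 43.3 and 50.2 FPKM in Control samples, and Atp5g3 (ENSRNOG00000001596) had 125, 121, 111 and 133 FPKM in OGD, against 214, 155, 178 and 182 FPKM in Control samples. For both, every OGD sample was below every Control sample. Their log2 changes were -0.67 ± 0.08 and -0.56 ± 0.10 (SE, limma adjusted p = 6.25e-05 and 0.000723). Atp5g2 (ENSRNOG00000015320), the most abundant, had 479, 452, 502 and 593 FPKM in OGD and 526, 420.2, 458 and 496 FPKM in Control samples. These samples overlapped, and the log2 change was 0.09 ± 0.10 (SE, limma adjusted p = 0.477). The RefSeq gene table lists 4 pseudogenes of Atp5g2 and 2 of Atp5g1, and reads shared with them were not tested.

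The make-up of subunit c messages did not overlap between the groups. Atp5g2 made up 75.6%, 74.7%, 78.6% and 78.6% of the summed FPKM of the 3 genes in OGD samples, against 66.5%, 67.9%, 67.4% and 68.1% in Control samples. Atp5g3 made up 18.7% ± 1.41 in OGD and 25.8% ± 1.01 in Control, and Atp5g1 4.46% ± 0.612 in OGD and 6.70% ± 0.366 in Control (SD, n = 4 each). The summed level itself was 658 ± 66.4 FPKM in OGD and 704 ± 72.8 FPKM in Control (SD, n = 4 each), a difference smaller than the spread. On the log2 scale the ratio of Atp5g2 to Atp5g3 was 2.04 ± 0.15 in OGD and 1.38 ± 0.07 in Control, and that of Atp5g1 to Atp5g2 was -4.07 ± 0.23 in OGD and -3.31 ± 0.07 in Control (SD, n = 4 each). Both differences, 0.65 and -0.76, had an exact two-sided permutation p of 0.0286, the smallest that 4 against 4 allows, and an adjusted p of 0.0571 over the 4 pairs tested, so neither passed. The ratio of Atp5g1 to Atp5g3 differed by -0.11 (exact permutation p = 0.200, adjusted p = 0.267). All OGD samples lay on the same side of all Control samples for the ratios with Atp5g2, while those for the ratio of Atp5g1 to Atp5g3 overlapped. Apart from the 1 FPKM added to each value, a factor common to a whole library cancels in these ratios. A shift that differs between the 2 genes of a pair does not. In Control replicate 1 the ratios of Atp5g2 to Atp5g3 and of Atp5g1 to Atp5g2 were 1.29 and -3.35.

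**Figure D4:**
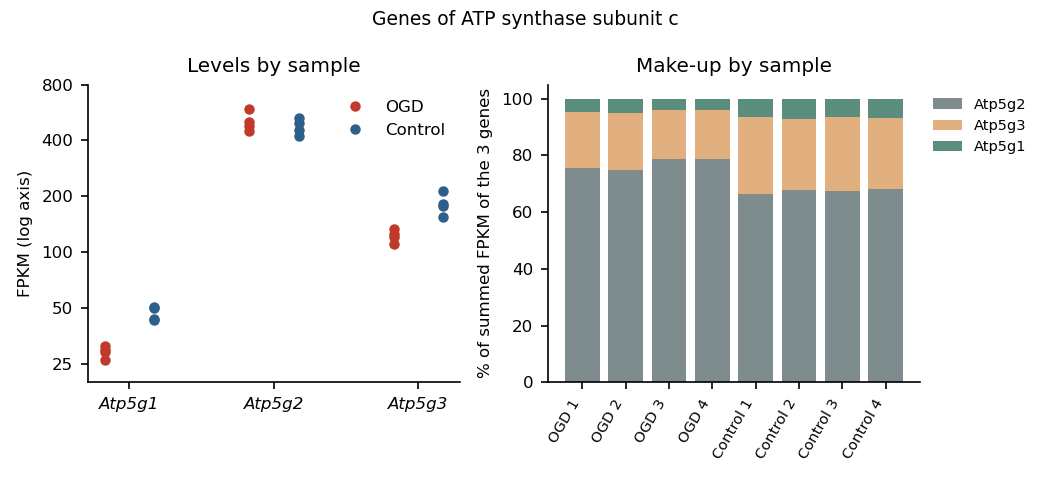
Left, FPKM of the 3 subunit c genes in each sample (log axis; red OGD, blue Control). Right, the share of each gene in their summed FPKM (percent), by sample. Atp5g2 holds 74.7% to 78.6% in OGD samples and 66.5% to 68.1% in Control samples.

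The start regions of these genes are shown because the genes share a mature protein and differ in whether they were called. Sequences are from RefSeq (GRCr8) and run from 250 bases before to 50 bases after the annotated start, 5′ to 3′ on the gene's strand, which is the minus strand for all 3. Capitals mark matches, on either strand, to GCGCA, any base, GCGC (the core bound by NRF1, a regulator of respiratory genes), CCGGAAG (an ETS core, as bound by GABPA), and ACGTG or GCGTG (cores of the hypoxia response element); CACGTG is ACGTG matched on both strands with overlap. The regions are chr10:81523296-81523595 for Atp5g1, chr7:135678169-135678468 for Atp5g2 and chr3:79220615-79220914 for Atp5g3, named Atp5mc1, Atp5mc2 and Atp5mc3 in RefSeq.
Atp5g1: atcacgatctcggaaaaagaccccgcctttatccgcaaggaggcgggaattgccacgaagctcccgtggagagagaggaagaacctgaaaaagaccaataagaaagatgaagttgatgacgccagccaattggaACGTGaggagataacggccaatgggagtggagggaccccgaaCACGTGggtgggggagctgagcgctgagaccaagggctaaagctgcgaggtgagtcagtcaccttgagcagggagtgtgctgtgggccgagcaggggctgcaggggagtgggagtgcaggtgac
Atp5g2: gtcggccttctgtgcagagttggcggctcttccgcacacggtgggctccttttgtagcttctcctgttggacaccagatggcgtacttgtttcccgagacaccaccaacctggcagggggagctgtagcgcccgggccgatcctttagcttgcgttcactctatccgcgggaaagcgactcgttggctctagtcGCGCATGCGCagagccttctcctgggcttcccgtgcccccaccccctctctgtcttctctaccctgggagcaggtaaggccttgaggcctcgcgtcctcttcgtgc
Atp5g3: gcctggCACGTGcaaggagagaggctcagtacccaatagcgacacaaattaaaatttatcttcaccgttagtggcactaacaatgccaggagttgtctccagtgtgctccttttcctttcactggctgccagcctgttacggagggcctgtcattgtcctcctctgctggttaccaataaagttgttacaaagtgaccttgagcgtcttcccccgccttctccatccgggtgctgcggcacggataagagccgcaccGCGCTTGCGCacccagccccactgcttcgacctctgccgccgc
The NRF1 core stood in the windows of Atp5g2 and Atp5g3 and not in that of Atp5g1, and ACGTG in those of Atp5g1 and Atp5g3 and not in that of Atp5g2. ACGTG was present in 19.3% of all 33469 RefSeq windows.

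The window of Higd1a (chr8:130400839-130401138, minus strand) and that of Cox18 (chr14:18149746-18150045, plus strand), the 2 members with the largest rises on the log2(FPKM + 1) scale, are set beside them with the same marking.
Higd1a: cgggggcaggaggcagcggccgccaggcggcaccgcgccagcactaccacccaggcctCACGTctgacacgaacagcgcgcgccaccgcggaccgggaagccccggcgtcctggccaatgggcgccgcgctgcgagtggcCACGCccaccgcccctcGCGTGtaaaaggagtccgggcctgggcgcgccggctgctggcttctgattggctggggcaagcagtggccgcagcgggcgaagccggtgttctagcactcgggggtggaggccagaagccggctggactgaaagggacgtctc
Cox18: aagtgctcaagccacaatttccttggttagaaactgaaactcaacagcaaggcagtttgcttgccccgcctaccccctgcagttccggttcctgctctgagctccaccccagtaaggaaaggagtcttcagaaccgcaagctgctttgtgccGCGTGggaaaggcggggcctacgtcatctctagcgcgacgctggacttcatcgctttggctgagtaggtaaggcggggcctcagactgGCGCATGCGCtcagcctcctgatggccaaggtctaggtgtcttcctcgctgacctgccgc
Higd1a had 1 match to ACGTG and 2 to GCGTG, and Cox18 had 1 to GCGTG and 1 to the NRF1 core. Windows were matched for 48 of the 57 members by symbol or older symbol. Of these, 7 held the NRF1 core (14.6%, beside 4.25% of all windows), 15 the ETS core (31.2%, beside 8.75%), 14 held ACGTG (29.2%, beside 19.3%) and 24 held GCGTG (50%, beside 29.7%). Among the 11 members that fell and had a window, 2 held the NRF1 core, 3 the ETS core, 5 ACGTG and 7 GCGTG. Among the 4 that rose, these counts were 1, 2, 1 and 3. Among the 26 that did not pass the test and had a window, they were 4, 10, 5 and 12. Differences between these shares were not tested, and the share over all windows is not one of expressed genes. A match is a run of letters, not a shown binding site.

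The regulator of ATP synthase and the genes with related symbols are given next. Atpif1, which blocks the reverse, ATP-consuming turn of the enzyme when the membrane potential fails, had 106, 112, 137 and 141 FPKM in OGD and 159, 116, 128 and 152 FPKM in Control samples. The samples overlapped, and the log2 change was -0.16 ± 0.12 (SE, limma adjusted p = 0.290). Atp5s, a coupling factor, had 0.592, 0.385, 0.344 and 0.733 FPKM in OGD, against 1.49, 0.987, 1.34 and 1.62 FPKM in Control samples. It missed the filter by 1 sample although its groups were separate, and without a filter it fell by 0.64 on the log2 scale (limma adjusted p = 0.00395). Atp5sl was at 0.14 and did not pass.

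The mitochondrially encoded partners of these subunits did not pass the test. Limma called 0 of 6 (0 at an unadjusted p of 0.05), beside 49.5% of all tested genes. Their median log2 change was 0.01. Mt-co1, the catalytic subunit of complex IV, had 14487 ± 2365 FPKM in OGD and 12350 ± 531 FPKM in Control, and Mt-cytb, the complex III subunit, had 6673 ± 1575 FPKM in OGD and 7900.0 ± 413 FPKM in Control (SD, n = 4 each; limma adjusted p = 0.277 and 0.204). The spread among OGD samples was several times that among Control samples. The mean level of the 3 mitochondrially encoded complex IV subunits was 15116, 16271, 12332 and 11225 FPKM in OGD samples and 13372, 12547, 12238 and 11729 FPKM in Control samples, while the 17 nuclear genes summed to 1947, 1957, 1902 and 2139 FPKM in OGD and 2413, 1821, 1980.3 and 2073 FPKM in Control samples. OGD replicate 4 was the lowest OGD sample for the mitochondrially encoded mean and the highest for the nuclear sum. Since FPKM is relative to a library total, the 2 measures are not independent. Mitochondrially encoded genes held 20.4% to 30.4% of the summed FPKM in OGD and 25.1% to 27.9% in Control libraries. Their share of the fragments is unknown.

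Further genes of the pathway were read from lists. Their counts stand beside 26.8% lower and 22.7% higher among all tested genes. Of 6 complex III assembly genes 2 fell and 4 did not pass. Lyrm7, which chaperones the Rieske protein, fell to 1.82 ± 0.409 FPKM in OGD, against 5.17 ± 0.397 FPKM in Control (SD, n = 4 each), a difference of -1.14 ± 0.12 on the log2 scale (SE, limma adjusted p = 4.07e-05), and Uqcc3 fell by 0.57 on the log2 scale. Of 15 further complex IV assembly genes with a row, 6 fell, 1 rose and 8 did not pass, with a median of -0.33. The falling genes were Pet100 (-0.77), Cox20 (-0.68), a chaperone of subunit 2, Coa5 (-0.40), Fdxr (-0.40), Coa3 (-0.36) and Coa4 (-0.33), and the rising gene was Oxa1l (0.35), an insertase of the inner membrane. Of 3 tested ATP synthase assembly genes, Atpaf1 (-0.40) and Tmem70 (-0.49) fell, and Atpaf2 (-0.20) did not pass. Ndufa4, now counted as a complex IV subunit, fell by 0.32 on the log2 scale, and its hypoxia-inducible relative Ndufa4l2 had 1.55 ± 0.241 FPKM in OGD and 1.35 ± 0.339 FPKM in Control (SD, n = 4 each; limma adjusted p = 0.488).

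Of 10 tested regulators of respiratory gene transcription, 2 rose, 0 fell and 8 did not pass by limma, with 3 lower at an unadjusted p of 0.05. Among all tested genes, 22.7% were called higher and 26.8% lower. Ppargc1a, the coactivator of mitochondrial biogenesis, rose to 4.27 ± 0.754 FPKM in OGD, against 2.67 ± 0.463 FPKM in Control (SD, n = 4 each), and its relative Pprc1 rose by 0.61 on the log2 scale. Nrf1, Gabpa and Tfam were at -0.22, -0.18 and -0.05. Of 6 genes of the hypoxic rewiring of respiration, 4 rose, 1 fell and 1 did not pass. Pdk1, which keeps pyruvate out of the citric acid cycle, rose by 1.57 on the log2 scale, Mxi1 by 1.23 and the mitophagy receptor Bnip3 by 1.36. Lonp1, the protease that removes Cox4i1 in hypoxic mammalian cells, rose to 48.2 ± 2.19 FPKM in OGD, against 37.1 ± 1.61 FPKM in Control (SD, n = 4 each). Iscu, an iron-sulphur scaffold, fell by 0.23 on the log2 scale. Iscu and Cox10 are known targets of miR-210 in human cells, and a role of miR-210 in these values was not tested.

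Across replicates, the tested members varied by a median coefficient of variation of 10.1% in OGD and 12.3% in Control samples. Cox6c was the steadiest in OGD, at 1.62%, and Cox14 the most variable, at 55.8% in OGD and 44.8% in Control samples.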

How the data were processed

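Values are FPKM as the authors deposited them, in a table of the whole series whose file headers name the unit. Per the labels' protocols, total RNA went into strand-specific libraries (Agilent SureSelect). Trimmomatic, FastQC and the genome build rn6 (Rnor_6.0) are named in the submitters' processing notes; for the aligner, the program that made FPKM, its annotation and whether it used strand, the entry is "not given in the sources used here". Where strand was not used, reads of overlapping genes cannot be told apart. Fragment totals are unknown, so no counting interval could be given. Relative depth was the commonest ratio of Control replicate 1 to a library, over genes above 0 and at most 0.5 FPKM in both. It was 0.814 to 1.17, with Control replicate 1 set at 1. Samples were grouped by their titles.

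From these values, the 11149 rows that reached 1 FPKM in 4 or more samples were put on a log2(FPKM + 1) scale and fitted by group with trended limma (version 3.58.1, under R 4.3.3), with Benjamini-Hochberg adjustment over all rows and a threshold of 0.05. This scale understates the change of low genes. Isoform ratios used log2 of (FPKM + 1) and an exact two-sided permutation test over samples, where both isoforms passed the filter, which 4 of 8 pairs did. Symbols were matched to a RefSeq table of GRCr8 for names and sequences only. Members and lists were chosen with earlier results of these data known. Values per sample were given, by a rule, for the 6 largest called falls and rises, isoform pairs with a value above 0, Cycs, Cyc1, Higd1a, Higd2a, Sco1 and Atpif1; Uqcrq, Cox7c, Cox10, Cox16, Atp5a1, Atp5b, Atp5d, Atp5f1, Atp5j, Atp5o and Atp5s were added after their values were seen. Of 48 tested members, 22 have a pseudogene entry in the RefSeq table, among them 5 of the 16 called (Cycs, Cox11, Atp5g1, Atp5j and Atp5o), and their values are uncertain. Entries were found by pseudogene symbols built on the gene's own symbol. Copies under other names would be missed, so the other members are not shown to be free of them. The versions used were Python 3.11.15, pandas 2.3.3, numpy 2.4.6, scipy 1.17.1 and matplotlib 3.10.9. The 18 alternatives were another filter or none, a pseudocount of 0.1, quantile normalization, rescaling outside mitochondrially encoded genes, limma without trend, the replicate block, summed rows, each library left out, and, chosen after seeing the data, centring on the median and a fit without both OGD replicate 4 and Control replicate 1. No alternative based on counts was run.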

Additional observations from a re-analysis of the deposited data

Results flagged for a closer look

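In 12 of 104 groups of 4 values, 1 value lay apart from the remaining 3 by more than the limit of a Dixon gap test at the 95% level; about 5.2 such groups arise by chance alone, and the groups share their libraries. Control replicate 1 was the library apart in 7 of the 12, above the other Control samples each time: at 97.4 FPKM for Atp5d, 359 FPKM for Atp5a1, 28.3 FPKM for Higd1a, 55.9 FPKM for Uqcrq, 86.1 FPKM for Uqcrc2, 9.01 FPKM for Sco1 and 384 FPKM for Cox6c. OGD replicate 4 stood above the other OGD samples at 64.1 FPKM for Cyc1 and 15.0 FPKM for Sco1. OGD replicate 3 stood below them at 96.1 FPKM for Cox7a2, 176.9 FPKM for Cox7b and 145 FPKM for Cox7c.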

How the results depend on the processing

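Of the 16 called members, 12 kept their call and direction in all 18 alternatives: Atp5g1, Atp5g3, Atp5o, Cox10, Cox19, Cox5a, Cycs, Uqcr11 and Uqcrq lower, and Cox18, Higd1a and Sco1 higher. Atp5d, Atp5j, Cox11 and Cox16 lost it in at least 1. No call was reversed. With quantile normalization 7 members rose, Cox4i1, Cox7a2l and Cox7c joining the 4, and 10 fell. Of all 11149 tested genes, 2728 rose and 2783 fell with that setting, against 2527 and 2992 in the main fit. The cause was not tested. The number that rose was 3 to 4 and the number that fell 10 to 17 with single libraries left out, the 17 without OGD replicate 4. In those fits 2176 to 2435 of all tested genes rose and 2499 to 3015 fell, of 10974 to 11053 tested. The 3015 was also without OGD replicate 4. With Control replicate 1 and OGD replicate 4 both left out, 14 fell and 4 rose, beside 2852 and 2363 of all 10847 genes tested. The median of complex IV assembly factors was -0.22 to -0.10 over libraries left out, and that of all members -0.18 to -0.04. The replicate block gave 13 lower and 4 higher members, beside 3012 lower and 2497 higher of all 11149 tested genes. With it both subunit c ratios (0.65 and -0.76) had an adjusted permutation p of 0.25, where 4 pairs cannot pass. Same-numbered samples deviated together in 1 of 4 pairs only (correlations -0.22 to 0.16), so the numbers were not read as pairs. Isoform ratios with a library left out cannot pass either, at adjusted p of 0.114 or more. Without counts, the precision of low members such as Cox18, Cox10 and Cox4i2 is unknown.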
